A study of Mus musculus with 227 samples.

Results

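The genes described here are 9 members of the transforming growth factor beta (TGF beta) system, out of 24388 genes in the expression table. They were chosen by name, with earlier results of these data known. The 9 are the ligands Tgfb1, Tgfb2 and Tgfb3, the receptors Tgfbr1, Tgfbr2 and Tgfbr3, the signal transducer Smad3, the latency protein Ltbp1 and the response gene Tgfbi. All 9 were present in the table. They were followed in individually captured cells of BL6 mouse long bone, taken on postnatal day 3. Sorting gave 4 skeletal populations, all of them negative for CD45 and Ter-119 and positive for AlphaV integrin. The cells labelled mSSC were in addition Tie2-, Thy-, 6C3-, CD105- and CD200+. The cells labelled CSP were Tie2-, Thy-, 6C3- and CD105+, the THY+ cells Tie2-, Thy+, 6C3- and CD105+, and the 6C3+ cells Thy-, 6C3+ and CD105+, with Tie2 not named in that gate. The series profiled 37 mSSC, 26 CSP, 72 THY+ and 92 6C3+ cells, 1 library per cell, on the Fluidigm C1 microfluidic platform, which captures single cells and amplifies their cDNA on a chip. No genotype, treatment, animal or culture is named for any cell.

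TGF beta is secreted in a latent form, held inactive by its own propeptide, which latent TGF beta binding proteins tether to fibrillin in the matrix; integrins with the AlphaV subunit, thrombospondin and matrix proteases can release it. The active ligand brings the type II receptor (Tgfbr2) and the type I receptor (Tgfbr1) together, and these phosphorylate Smad2 and Smad3, which enter the nucleus with Smad4. In the growth plate the pathway is known for holding back chondrocyte hypertrophy, and in bone, tendon and joint tissue for driving matrix production.

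Cells with at least 1000 genes detected (FPKM, fragments normalised to transcript length and to all mapped fragments, of at least 1) formed the main set: 37 mSSC, 11 CSP, 43 THY+ and 34 6C3+ cells. Their medians were 2534, 3033, 2835 and 2639 genes in that order. Spike-in RNA took a median of 20.8% of all FPKM in THY+ and 18.9% in 6C3+ cells and at most 0.0276% in any mSSC or CSP cell of the main set, and its part in the differences below was not tested. By index positions mSSC and CSP cells lay on one plate and the others on plates of their own, and 0 index pairs were shared between populations, and outside the pair of mSSC and CSP a difference between populations cannot be told apart from one between plates. Chondrocyte markers were found in all 37 mSSC, all 11 CSP, all 34 6C3+ and 38 of 43 THY+ cells, with median summed FPKM of 30018, 29940, 1419 and 455 in that order. Osteoblast markers were found in 42 of 43 THY+, 31 of 34 6C3+, 23 of 37 mSSC and 9 of 11 CSP cells, with median sums of 4967, 2663, 11.2 and 181.8. The sums in THY+ and 6C3+ cells were close to Col1a1 alone, whose medians were 4966 and 2663 FPKM. Col1a1 was found in 42 of 43 THY+, 29 of 34 6C3+, 22 of 37 mSSC and 1 of 11 CSP cells. Of the 6 osteoblast markers, Bglap, an osteoblast product, was not detected in mSSC, THY+ and 6C3+ cells. Sp7 was also not detected in THY+ cells, nor Ibsp and Alpl in mSSC cells, while all 6 were detected among CSP cells. Of 5 endothelial and 5 myeloid markers, 0 and 2 were detected in mSSC, 0 and 0 in CSP, 1 and 1 in THY+ and 3 and 1 in 6C3+ cells, and Ptprc, which encodes CD45, was at 0 throughout. Each population is 1 sample, because no animals are named: no p-value can be given, and the exact Clopper-Pearson 95% intervals in parentheses cover counting error between cells only. Reads could not be recovered from FPKM, so the depth behind each value is unknown, and a value of 0 does not show absence of the transcript.

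Promoter sequences from RefSeq (GRCm38.p6, the assembly behind mm10) were matched for 7 of the 9 genes, and 3 are shown because they belong to the ligand that was almost never detected, the ligand detected most often and the member detected in the most cells. Each is the 250 bases before the annotated start, 5′ to 3′ on the gene's strand: Tgfb1 at chr7:25686752-25687001 (plus), Tgfb2 at chr1:186705990-186706239 (minus) and Tgfbi at chr13:56609336-56609585 (plus). Capitals mark matches, on either strand, to GTCTAGAC, CAGACA and GGCGCC (letters bound by SMAD proteins), TGAGTCA (AP-1), GGGCGG (the GC box of SP1) and TATAAA (the TATA box).
Tgfb1: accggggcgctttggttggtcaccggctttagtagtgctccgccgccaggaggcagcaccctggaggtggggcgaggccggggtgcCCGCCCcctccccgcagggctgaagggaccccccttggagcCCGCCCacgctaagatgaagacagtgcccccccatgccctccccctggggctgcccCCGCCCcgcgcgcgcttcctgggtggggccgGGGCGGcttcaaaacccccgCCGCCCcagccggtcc
Tgfb2: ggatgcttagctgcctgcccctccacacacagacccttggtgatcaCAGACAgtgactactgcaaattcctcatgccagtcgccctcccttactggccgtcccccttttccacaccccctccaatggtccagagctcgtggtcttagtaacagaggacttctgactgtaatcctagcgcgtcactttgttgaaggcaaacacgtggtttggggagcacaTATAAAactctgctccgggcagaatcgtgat
Tgfbi: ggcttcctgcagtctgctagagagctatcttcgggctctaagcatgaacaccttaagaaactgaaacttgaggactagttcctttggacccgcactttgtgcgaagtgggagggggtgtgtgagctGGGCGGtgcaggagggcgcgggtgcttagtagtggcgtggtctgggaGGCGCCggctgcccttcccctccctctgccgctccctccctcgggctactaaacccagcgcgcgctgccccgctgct
The Tgfb1 window had 5 GC boxes, no TATAAA and 75.2% G and C. The Tgfb2 window had TATAAA beginning 31 bases before the start, CAGACA beginning 204 bases before it, no GC box and 53.6% G and C. The Tgfbi window held GGCGCC and 1 GC box and had 62.4% G and C. It ends at 56609585, past the gene start of 56609523 in the GENCODE M21 annotation given below. By that annotation its last bases lie within the gene. Among 32851 RefSeq promoter windows of this length, 12.4% held TATAAA, 32.7% the GC box, 17.1% CAGACA, 9.59% GGCGCC, 4.46% TGAGTCA and 0.167% GTCTAGAC, and the median was 52.4% G and C. These matches describe letters only and were not measured for binding.

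Among the ligands, Tgfb2 and Tgfb3 were detected in every population and Tgfb1 almost nowhere. Tgfb1, the isoform abundant in platelets and bone matrix, was detected in 2 of 43 THY+ cells (4.65%, 0.568 to 15.8) and 1 of 11 CSP cells (9.09%, 0.23 to 41.3), and in 0 of 34 6C3+ cells (0%, up to 10.3) and 0 of 37 mSSC cells (0%, up to 9.49). Its value was 7.33 FPKM in the CSP cell and 1.25 and 2.39 in the THY+ cells. Over all cells of the series it was detected in 7, of which 3 CSP cells and 1 THY+ cell had under 1000 genes. None of the 7 had a myeloid, endothelial or erythroid marker, while 1 had a platelet marker. Such markers were rare in the main set with or without Tgfb1. Of 43 THY+ cells, 2 had a myeloid, 1 an endothelial, 2 an erythroid and 1 a platelet marker, and of 11 CSP cells 0 had any. Missing markers in 7 cells, several of them with few genes, therefore do not tell these cells from the others. Tgfb1 was the only member that missed the filter of detection in at least 10% of cells (mean of the 4 population shares), which the 8 others and 7867 genes in all passed.

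Tgfb2 was detected most often in CSP cells. It was found in 8 of 11 CSP cells (72.7%, 39 to 94), 18 of 34 6C3+ cells (52.9%, 35.1 to 70.2), 18 of 43 in THY+ (41.9%, 27 to 57.9) and 11 of 37 mSSC cells (29.7%, 15.9 to 47). The lowest value was 0 in each population, the medians were 19.7 FPKM in CSP, 2.40 in 6C3+ and 0 in THY+ and mSSC, and the highest values were 117.3 in CSP, 208 in 6C3+, 593 in THY+ and 696 in mSSC. The ranges overlapped, as did the intervals of the shares, and CSP was first by share of cells and last by its highest cell. Its mean log2(FPKM + 1) was 3.81 in CSP against 1.79 in mSSC, a difference of 2.02, but this turned to -0.0085 over all cells, where 10 of 26 CSP cells (38.5%, 20.2 to 59.4) held it. In the main set the difference was 0.14 with the log2 of the mean FPKM and 0.85 with 10 added to FPKM in place of 1.

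Tgfb3 was found in 15 of 34 6C3+ cells (44.1%, 27.2 to 62.1), 18 of 43 THY+ cells (41.9%, 27 to 57.9), 4 of 11 CSP cells (36.4%, 10.9 to 69.2) and 10 of 37 mSSC cells (27%, 13.8 to 44.1). In the cells that held it the median was 68.7 FPKM in mSSC, 42.5 in 6C3+, 11.3 in CSP and 9.60 in THY+. So the order by cells and the order by level per positive cell differed, with mSSC last in the first and first in the second. Tgfb3 lies opposite the coding gene Ttll5, with 5149 shared bases; whether counting used strand is not given in the sources used here, so reads of the 2 genes may not have been told apart.

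**Figure D1:**
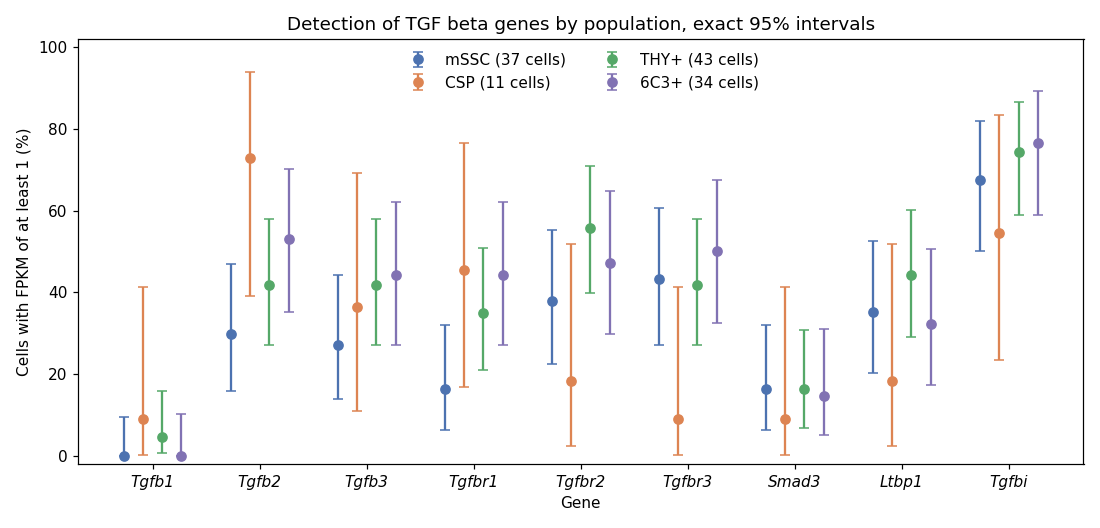
Share of cells (%) with each transcript at FPKM of at least 1, in cells with at least 1000 genes; points are shares and bars exact 95% Clopper-Pearson intervals. Tgfb1 is at 0% in mSSC and 6C3+, 4.65% in THY+ and 9.09% in CSP cells. Tgfbi is the most often detected member in mSSC, THY+ and 6C3+ cells, and all intervals overlap between populations for each gene.

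Each of the 3 receptors was detected in every population, and in CSP they were found either in few cells (Tgfbr2, Tgfbr3) or at low values (Tgfbr1). Tgfbr2, the ligand-binding type II kinase, was found in 24 of 43 THY+ cells (55.8%, 39.9 to 70.9), 16 of 34 6C3+ cells (47.1%, 29.8 to 64.9), 14 of 37 mSSC cells (37.8%, 22.5 to 55.2) and 2 of 11 CSP cells (18.2%, 2.28 to 51.8). Its lowest value was 0 in each population, the medians were 2.29 FPKM in THY+, 0.897 in 6C3+ and 0 in the others, and the highest values were 1207 in THY+, 469 in mSSC, 264 in 6C3+ and 74.7 in CSP. The 2 CSP cells with the transcript lay within the range of the positive cells elsewhere.

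Tgfbr1, the type I kinase that phosphorylates the SMAD proteins, was found in 5 of 11 CSP cells (45.5%, 16.7 to 76.6), 15 of 34 6C3+ cells (44.1%, 27.2 to 62.1), 15 of 43 in THY+ (34.9%, 21 to 50.9) and 6 of 37 mSSC cells (16.2%, 6.19 to 32). The 5 positive CSP cells held 2.01 to 5.16 FPKM, with a median of 3.89. Positive cells elsewhere had medians of 49.7 FPKM in 6C3+ (1.05 to 434), 38.7 in mSSC (4.09 to 274) and 34.8 in THY+ (3.35 to 264). CSP was thus first by share of cells, at values in the lowest part of the other populations' ranges.

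Tgfbr3 (betaglycan), a co-receptor that presents ligand and that TGF beta 2 depends on most, had the widest difference of mean log2 level between CSP and each other population among the 9 members. It was found in 17 of 34 6C3+ cells (50%, 32.4 to 67.6), 16 of 37 mSSC cells (43.2%, 27.1 to 60.5), 18 of 43 in THY+ (41.9%, 27 to 57.9) and 1 of 11 CSP cells (9.09%, 0.23 to 41.3). Its lowest value was 0 in each population, the medians were 0.83 FPKM in 6C3+, 0.279 in THY+, 0.246 in mSSC and 0 in CSP, and the highest values were 969 in THY+, 630 in mSSC, 510 in 6C3+ and 1.02 in CSP. The highest CSP cell was thus barely above the threshold of detection, while the 3 other populations reached 510 FPKM or more. Over all cells the CSP share was 1 of 26 (3.85%, 0.0973 to 19.6), an interval that lies below that of mSSC, but 15 of these CSP cells had under 1000 genes.

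Smad3, the transducer, was the least detected member after Tgfb1 in THY+ and 6C3+ cells, and in mSSC cells it was tied with Tgfbr1. It was found in 7 of 43 THY+ cells (16.3%, 6.81 to 30.7), 6 of 37 mSSC cells (16.2%, 6.19 to 32), 5 of 34 6C3+ cells (14.7%, 4.95 to 31.1) and 1 of 11 CSP cells (9.09%, 0.23 to 41.3), with a median of 0 in each. Its highest values were 236.5 FPKM in mSSC, 175.5 in THY+, 82.5 in 6C3+ and 26.1 in CSP. The shares of THY+, mSSC and 6C3+ lay within 2 percentage points of each other.

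Ltbp1, which tethers the latent ligand to the matrix, was found in 19 of 43 THY+ cells (44.2%, 29.1 to 60.1), 13 of 37 mSSC cells (35.1%, 20.2 to 52.5), 11 of 34 6C3+ cells (32.4%, 17.4 to 50.5) and 2 of 11 CSP cells (18.2%, 2.28 to 51.8). Its lowest value was 0 in each population, the medians were 0.276 FPKM in 6C3+, 0.241 in THY+ and 0 in the others, and the highest values were 475 in THY+, 187.9 in CSP, 138.2 in mSSC and 121.3 in 6C3+. One of the 2 positive CSP cells therefore ranked with the highest mSSC and 6C3+ cells.

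Tgfbi, a secreted matrix protein induced by TGF beta, was the most often detected member in mSSC, THY+ and 6C3+ cells. It was found in 26 of 34 6C3+ cells (76.5%, 58.8 to 89.3), 32 of 43 THY+ cells (74.4%, 58.8 to 86.5), 25 of 37 mSSC cells (67.6%, 50.2 to 82) and 6 of 11 CSP cells (54.5%, 23.4 to 83.3). Its lowest value was 0 in each population, the medians were 105.95 FPKM in mSSC, 52.2 in 6C3+, 17 in THY+ and 3.60 in CSP, and the highest values were 2821 in mSSC, 2199 in THY+, 1272 in 6C3+ and 795 in CSP. By median level mSSC was first, although by share of cells it came after 6C3+ and THY+, and CSP was last by both. FPKM is per length, and on this scale the mean over cells of Tgfbi (310 FPKM in mSSC, 186.03 in THY+, 135.8 in 6C3+, 118.6 in CSP) was above that of each other member in each population.

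**Figure D2:**
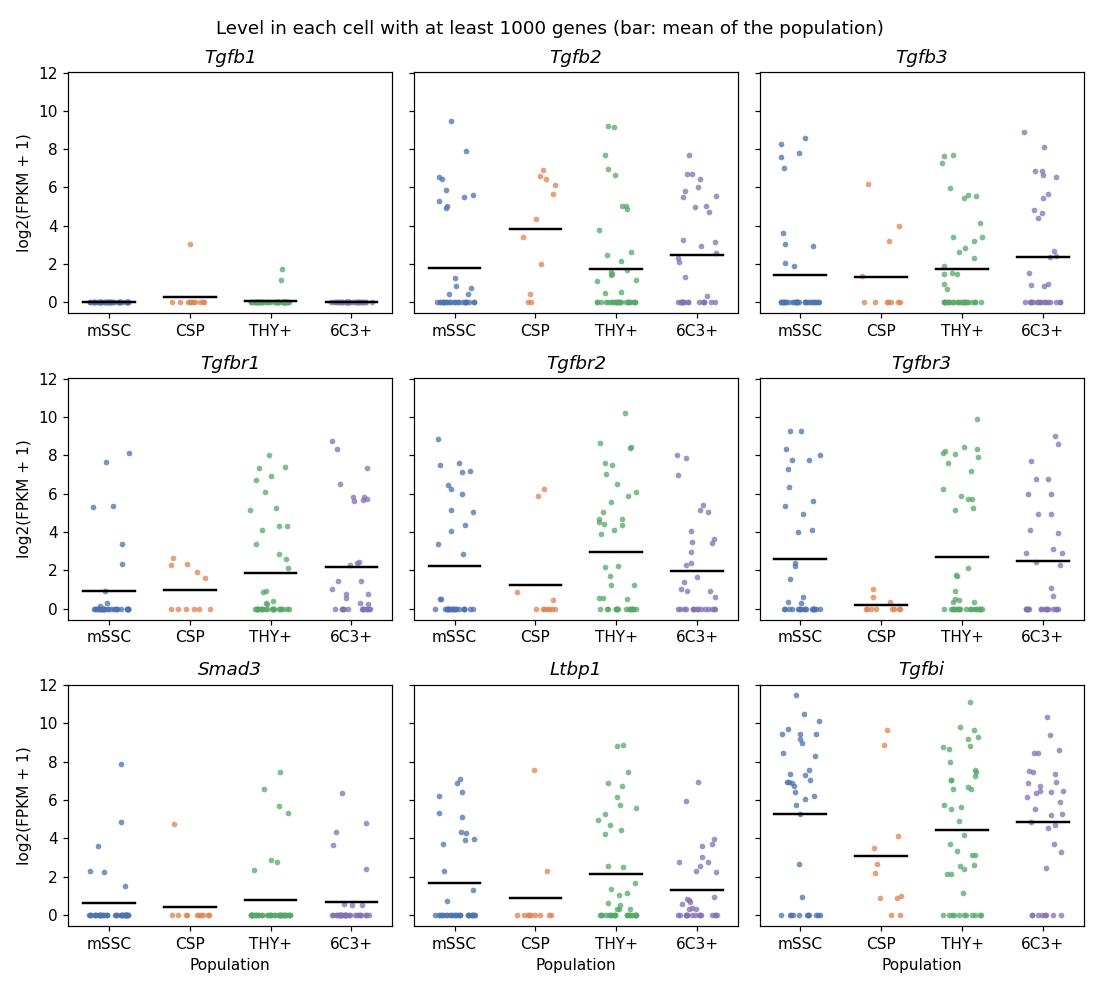
Level of each member in each cell with at least 1000 genes, as log2(FPKM + 1), 1 panel per gene; points are cells, spread sideways at random, and black bars are population means. In Tgfbr3 the 11 CSP cells lie at or near 0 while the other populations reach values above 8, and in Tgfb2 most CSP cells lie above 0.

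Pair by pair, the intervals of the detection shares overlapped between all populations. In 0 of the 54 comparisons (9 genes and 6 pairs of populations) were the 95% intervals apart. Overlap of 2 such intervals does not show that a difference lies within counting error. Among the 7867 genes that passed the filter, the intervals were apart for 1.13% between CSP and mSSC, 4.73% between THY+ and mSSC, 3.01% between 6C3+ and mSSC, 3.23% between THY+ and CSP, 2.42% between 6C3+ and CSP, and 0.661% between 6C3+ and THY+. A count of 0 among 9 genes is near these shares.

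In the main set the most members differed in mean level in the 3 pairs with CSP, which also had the highest shares of all genes past that size. This order did not hold over all cells, where 0 members were past it in 6C3+ minus CSP and 4 in 6C3+ minus mSSC. A gene was counted where mean log2(FPKM + 1) differed by at least 1, on which scale the change of low genes is understated. In CSP minus mSSC 1 of 9 members was higher (Tgfb2, 2.02) and 3 were lower (Tgfbr3 -2.41, Tgfbi -2.20 and Tgfbr2 -1.02), beside 26.2% of all genes past that size that passed the filter (15.7% higher, 10.5% lower). The median of the 9 was -0.17 and that of all genes 0.05. With endogenous FPKM rescaled to 1000000 per cell Tgfbr2 was at -0.86, and in the 3 CSP cells and 24 mSSC cells with 2000 to 3000 genes Tgfbi turned to 2.19.

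In THY+ minus CSP 4 of 9 members were higher (Tgfbr3 2.52, Tgfbr2 1.75, Tgfbi 1.38 and Ltbp1 1.25) and Tgfb2 was lower (-2.07), beside 33.5% of all genes (14.9% higher, 18.6% lower). In 6C3+ minus CSP 4 were higher (Tgfbr3 2.30, Tgfbi 1.797, Tgfbr1 1.17 and Tgfb3 1.03) and Tgfb2 was lower (-1.36), beside 32.2% of all genes (8.24% higher, 24% lower). Over all cells the 5 calls of 6C3+ minus CSP were lost (Tgfbr3 0.89, Tgfbi 0.65, Tgfbr1 0.45, Tgfb3 0.39 and Tgfb2 -0.83). Tgfb2 in THY+ minus CSP was at -0.67 over all cells, -0.03 with the log2 of the mean, -0.93 with a pseudocount of 10 and -0.98 under 20% spike-in. The medians of the 9 were 0.87 and 0.75, and those of all genes 0.02 and -0.21. These comparisons share the 11 CSP cells with each other and with CSP minus mSSC, so they are not separate evidence on CSP. In cells with 2000 to 3000 genes, 3 of them CSP, Tgfbi (-2.71), Ltbp1 (-1.19) and Tgfbr2 (-0.0476) turned in THY+ minus CSP, and Tgfbi (-2.82) and Tgfb3 (-1.10) in 6C3+ minus CSP.

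The other populations differed less. In THY+ minus mSSC 0 of 9 members were past 1, beside 21.2% of all genes (10.7% higher, 10.6% lower), the widest being Tgfbr1 at 0.94 and Tgfbi at -0.82. In 6C3+ minus mSSC 1 of 9 was past 1 (Tgfbr1, 1.25), beside 19.7% of all genes (4.89% higher, 14.8% lower), and over all cells it turned to -0.038. In 6C3+ minus THY+ 0 of 9 were past 1, beside 13.2% of all genes (2.03% higher, 11.1% lower), and the widest was Tgfbr2 (2.97 in THY+ against 1.98 in 6C3+). In THY+ minus mSSC, leaving out cells with 20% or more spike-in, which keeps 19 THY+ and 37 mSSC cells, put 6 of 9 members past 1, all higher in THY+, beside 32.6% of all genes (28% higher, 4.54% lower) and a shift of 0.35 in the median of all genes; the THY+ cells kept had a median of 3422 genes.

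**Figure D3:**
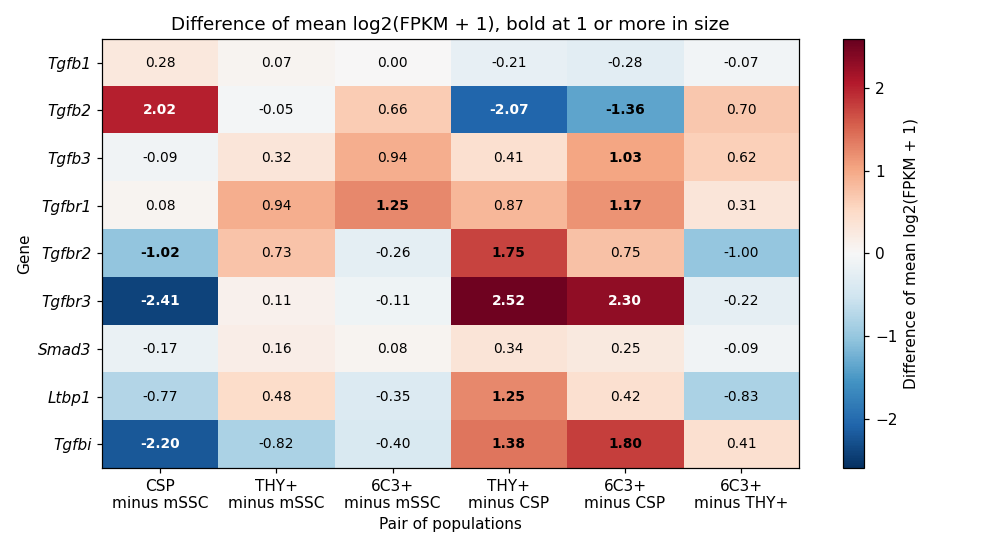
Difference of mean log2(FPKM + 1) for each member (rows) and pair of populations (columns), in cells with at least 1000 genes; red is higher in the first population, blue lower, and bold marks a size of 1 or more. The 3 columns with CSP hold 14 of the 15 bold values, with Tgfb2 and Tgfbr3 in opposite directions.

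Ligand and receptor transcripts were looked for in the same cell, since a cell can respond only with both kinase receptors. Any of the 3 ligands was found in 10 of 11 cells (90.9%, 58.7 to 99.8) in CSP, 28 of 43 THY+ cells (65.1%, 49.1 to 79), 22 of 34 6C3+ cells (64.7%, 46.5 to 80.3) and 17 of 37 mSSC cells (45.9%, 29.5 to 63.1). Tgfbr1 and Tgfbr2 were found together in 8 of 34 6C3+ cells (23.5%, 10.7 to 41.2), 9 of 43 THY+ cells (20.9%, 10 to 36), 2 of 11 CSP cells (18.2%, 2.28 to 51.8) and 6 of 37 mSSC cells (16.2%, 6.19 to 32). The shares with both receptors thus lay close together in the 4 populations in the main set at FPKM of at least 1.

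In mSSC every one of the 6 cells with Tgfbr1 also held Tgfbr2, and none of them held a ligand (0 of 37 cells with both receptors and a ligand, up to 9.49%). Among these 6 cells Tgfb2 stood at 0.358 FPKM in 1 cell and 0.706 in another, so the count of 0 depends on the threshold. Both receptors with a ligand were found in 6 of 43 THY+ cells (14%, 5.3 to 27.9), 5 of 34 6C3+ cells (14.7%, 4.95 to 31.1) and 2 of 11 CSP cells (18.2%, 2.28 to 51.8), with overlapping intervals. Tgfb2 together with its co-receptor transcript Tgfbr3 was found in 10 of 34 6C3+, 9 of 37 mSSC, 8 of 43 THY+ and 1 of 11 CSP cells. A ligand together with Ltbp1 was found in 14 of 43 THY+, 8 of 37 mSSC, 7 of 34 6C3+ and 2 of 11 CSP cells.

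**Figure D4:**
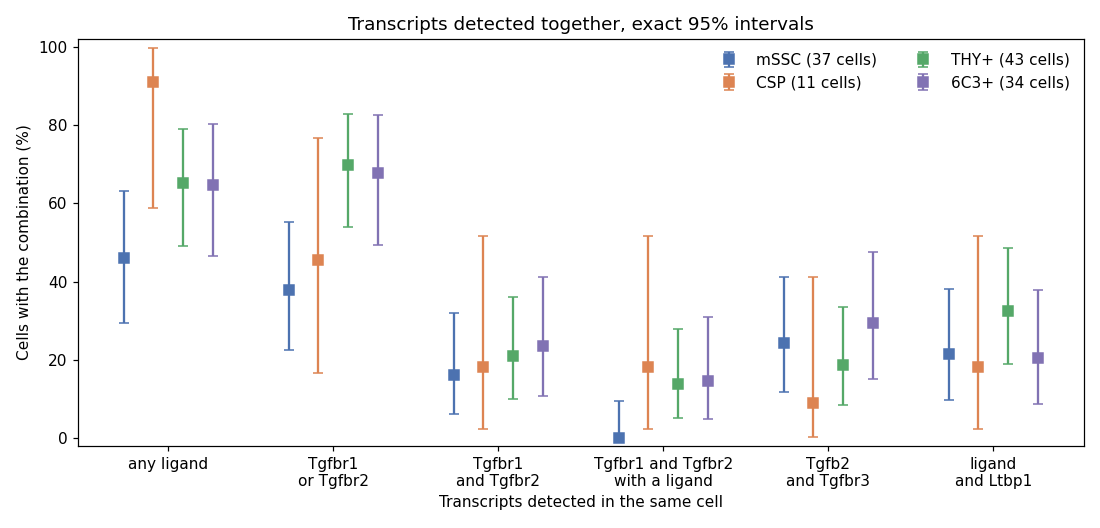
Share of cells (%) with combinations of transcripts at FPKM of at least 1 in the same cell, in cells with at least 1000 genes; squares are shares and bars exact 95% intervals. CSP is highest for any ligand (90.9%) and mSSC lowest (45.9%), while Tgfbr1 with Tgfbr2 lies between 16.2% and 23.5% in all 4.

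The number of members per cell had a median of 3 in mSSC (0 to 6), 2 in CSP (1 to 6), 3 in THY+ (0 to 9) and 4 in 6C3+ cells (1 to 6). It went with the number of genes detected in mSSC (Pearson r = 0.46 over 37 cells), THY+ (0.43 over 43) and 6C3+ (0.47 over 34) but not in CSP (-0.26 over 11), which is a description over cells that share a plate. A single THY+ cell held all 9 transcripts, with Tgfbr2 at 342 FPKM, Tgfbr3 at 324 and Tgfb2 at 123.2; it had 5239 genes, the second most among THY+ cells. The 36 pairs of members had r of log2(FPKM + 1) between -0.10 and 0.25 over the cells of the main set, highest for Ltbp1 with Tgfbi.

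Other genes followed single members only loosely. Likeness was ranked by Pearson r over the same cells, which differ in population and plate. The genes named are the top 3 of 7638 ranked (7639 for Tgfb1), so they were picked as the highest of many. How high r would reach by chance was not tested. Closest to Ltbp1 were Lox (0.49), which cross-links collagen and elastin, Ogn (0.43), a small matrix proteoglycan, and Eln (0.43), elastin. Within populations the r of Ltbp1 with Lox was 0.44 in mSSC, 0.74 in CSP, 0.51 in THY+ and 0.42 in 6C3+ cells, while in 6C3+ cells it was 0.21 with Ogn and 0.18 with Eln. The value in CSP rests on 2 of 11 cells with Ltbp1 and 3 of 11 with Lox. Closest to Tgfbi were the collagens Col6a1 (0.40) and Col8a2 (0.38), then Gorab (0.36). In 6C3+ cells the r of Tgfbi was 0.20 with Col6a1, -0.05 with Col8a2 and 0.38 with Gorab.

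For the ligands and receptors the leading genes were Akap9, Nck1 and St3gal5 for Tgfb2 (0.44 to 0.41), Hacd3, Palm and Robo1 for Tgfb3 (0.38 to 0.36), Med22, Timm10 and Wdr26 for Tgfbr1 (0.51 to 0.41), Psap, B3galnt1 and Rtel1 for Tgfbr2 (0.42 to 0.36), and Adipor1, Cpeb4 and Ndufaf3 for Tgfbr3 (0.39 to 0.38). For Smad3 they were Adar, Gtpbp1 and Borcs7 (0.46 to 0.36). Those of Tgfb1 (Rad9a, Taf1a and Cep63, 0.60 to 0.43) rest on 3 cells with Tgfb1.

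Within THY+ cells Tgfbi was split by pericyte transcripts. Of the 43 cells, 13 held at least 6 of 11 pericyte and smooth muscle transcripts, 30 held at most 4, and none held 5. Tgfbi was found in 5 of the 13 (38.5%, 13.9 to 68.4) and in 27 of the 30 (90%, 73.5 to 97.9). The medians were 0 and 48.4 FPKM, with highest values of 449 and 2199, so the ranges overlapped while the intervals of the shares did not. The cells rich in pericyte transcripts had more genes, with a median of 3193 against 2799.5. Tgfb2 (2 of 13 against 16 of 30) and Ltbp1 (3 of 13 against 16 of 30) had overlapping intervals. Of 27 such splits, which add mSSC cells with and without Wif1 and 6C3+ cells with and without collagen IX transcripts for each member, that of Tgfbi in THY+ cells was the 1 with separate intervals. Over the 7867 genes the intervals were separate for 2.02% in the THY+ split, 0.229% in the mSSC split and 0.686% in the 6C3+ split, and all 3 splits were chosen with values of these data known.

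Around the 9 members, the matrix genes that store or bind TGF beta differed in opposite directions between populations. Ltbp4, a latent TGF beta binding protein, was found in 20 of 34 6C3+ cells (58.8%, 40.7 to 75.4) and 25 of 43 THY+ cells (58.1%, 42.1 to 73) but 4 of 37 mSSC cells (10.8%, 3.03 to 25.4) and 1 of 11 CSP cells (9.09%, 0.23 to 41.3). Fbn1, fibrillin 1, was found in 33 of 43 THY+ cells (76.7%, 61.4 to 88.2) against 16 of 37 mSSC cells (43.2%, 27.1 to 60.5), and Fbn2 had a mean log2 level of 4.71 in THY+ against 2.598 in mSSC. Fmod (fibromodulin) and Dcn (decorin), proteoglycans that bind TGF beta, were lower in THY+ than in mSSC, with differences of -4.04 and -3.35. For Fbn2, Fmod and Dcn the intervals of the detection shares overlapped between THY+ and mSSC. In 6C3+ minus mSSC the differences were 1.81 for Ltbp4, 1.52 for Fbn2, 0.72 for Fbn1, -3.16 for Fmod and -1.50 for Dcn. Of these only Ltbp4 had separate intervals of its shares. By mean level, fibrillins and Ltbp4 were thus higher in THY+ than in mSSC cells and these proteoglycans lower, with plate not told apart from population.

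The counts for this and the following lists stand beside these shares of all genes past 1: 10.7% higher and 10.6% lower in THY+ minus mSSC, 4.89% and 14.8% in 6C3+ minus mSSC, 15.7% and 10.5% in CSP minus mSSC, 14.9% and 18.6% in THY+ minus CSP, 8.24% and 24% in 6C3+ minus CSP, and 2.03% and 11.1% in 6C3+ minus THY+. These shares cover genes that passed the detection filter, while the lists keep all their genes. The filter was passed by 8 of 10 latent complex and matrix genes and 6 of 10 activation genes. It was passed by 3 of 7 co-receptors and related receptors, 10 of 11 intracellular regulators and 16 of 18 response genes. Over all cells, which adds cells with under 1000 genes to each population but mSSC, they were 1.65% and 24.4% in THY+ minus mSSC, 0.114% and 39.3% in 6C3+ minus mSSC, and 0.381% and 34% in CSP minus mSSC. The latent complex and matrix list of 10 genes had 4 past 1 higher and 3 lower in THY+ minus mSSC, with a median of 0.37 against 0.10 for all genes. It had 2 higher and 3 lower in 6C3+ minus mSSC, 0 higher and 4 lower in CSP minus mSSC, 3 and 2 in THY+ minus CSP, 4 and 0 in 6C3+ minus CSP, and 1 and 1 in 6C3+ minus THY+. Rescaling moved the split in 6C3+ minus mSSC to 4 higher and 1 lower. Over all cells 1 gene was higher in THY+ minus mSSC (Ltbp4) and 0 in 6C3+ minus mSSC, with 3 lower in each.

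Among genes that activate latent TGF beta, Mmp14, a membrane protease, was found in 27 of 34 6C3+ cells (79.4%, 62.1 to 91.3) and 34 of 43 THY+ cells (79.1%, 64 to 90) against 12 of 37 mSSC cells (32.4%, 18 to 49.8) and 3 of 11 CSP cells (27.3%, 6.02 to 61). Thbs1, thrombospondin 1, went the other way: 33 of 37 mSSC cells (89.2%, 74.6 to 97) and 10 of 11 CSP cells (90.9%, 58.7 to 99.8) held it, against 18 of 34 6C3+ cells (52.9%, 35.1 to 70.2) and 27 of 43 THY+ cells (62.8%, 46.7 to 77). Its mean log2 level differed from that of mSSC by -4.05 in THY+ and by -4.10 in 6C3+. The 2 activators therefore had opposite orders across the same populations.

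Itgav, the AlphaV subunit on which all cells were gated, lay between 60.5% and 64.9% of cells in every population. Of its partners, Itgb1 was found in 78.4% to 100% and Itgb5 in 36.4% to 50% of cells, Itgb3 in 3 THY+ and 5 6C3+ cells only, Itgb8 in 1 THY+ cell and Itgb6 in none. Mmp9 was not detected in any cell of the main set. Of the 10 activation genes, 1 was higher and 1 lower by 1 in both THY+ minus mSSC and 6C3+ minus mSSC (Mmp14 and Thbs1), 0 in CSP minus mSSC, and 1 higher and 2 lower in each of the 3 other pairs. Over all cells it was 1 higher and 5 lower in THY+ minus mSSC, and 0 and 5 in both 6C3+ minus mSSC, where the call of Mmp14 was lost, and CSP minus mSSC.

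Of 7 co-receptors and related receptors, only 3 passed the detection filter, and a gene found in few cells can hardly reach a size of 1. In THY+ minus mSSC, 6C3+ minus mSSC or THY+ minus CSP 0 were past 1. In CSP minus mSSC 2 were lower (Cd109 -1.61 and Eng -1.20), and Cd109 was higher in 6C3+ minus CSP (2.34) and 6C3+ minus THY+ (1.42). Over all cells both calls of Cd109 were lost, and Eng and Cd109 were lower in 6C3+ minus mSSC. Eng encodes CD105, itself a TGF beta co-receptor and a gate antigen; it was found in 0 of 11 CSP cells (0%, up to 28.5), although CSP was gated CD105+, and in 8 of 37 mSSC cells (21.6%, 9.83 to 38.2), gated CD105-. Cd109, a surface protein that binds TGF beta, was found in 26 of 34 6C3+ cells (76.5%, 58.8 to 89.3) and 21 of 43 THY+ cells (48.8%, 33.3 to 64.5), with overlapping intervals. Cd200, on which mSSC was gated positive, was found in 9 of 11 cells labelled CSP (81.8%, 48.2 to 97.7) and 8 of 37 labelled mSSC (21.6%, 9.83 to 38.2), with separate intervals. Eng thus went against the CD105 gates of CSP and mSSC, with overlapping intervals. Cd200 was found in a smaller share of the cells gated on it than of CSP cells, whose gate does not name CD200. Other gate transcripts were also missed in many gated cells, with Thy1 in 9 of 43 THY+ cells and Enpep, which encodes 6C3, in 9 of 34 6C3+ cells. Each direction between the cells labelled CSP and mSSC rests on their labels.

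Among intracellular regulators, Smad7, the inhibitory SMAD, was found in 9 of 11 CSP cells (81.8%, 48.2 to 97.7), 18 of 34 6C3+ cells (52.9%, 35.1 to 70.2), 14 of 43 in THY+ (32.6%, 19.1 to 48.5) and 12 of 37 mSSC cells (32.4%, 18 to 49.8). Ski, a corepressor of SMAD proteins, was found in 30 of 34 6C3+ cells (88.2%, 72.5 to 96.7) and 37 of 43 THY+ cells (86%, 72.1 to 94.7) against 4 of 11 CSP cells (36.4%, 10.9 to 69.2), intervals that do not meet. Smad7 had no separate interval in any pair. CSP was first in the order of Smad7 and last in that of Ski. Of the 11 genes in this list, 3 were higher and 2 lower in THY+ minus mSSC, 2 and 1 in 6C3+ minus mSSC, 2 and 2 in CSP minus mSSC, 1 and 1 in THY+ minus CSP, 2 and 0 in 6C3+ minus CSP, and 2 and 0 in 6C3+ minus THY+. Over all cells it was 0 higher and 4 lower in THY+ minus mSSC and 0 and 3 in 6C3+ minus mSSC, and rescaled it was 3 and 0 in both. Tgif1, another corepressor, was 1.62 higher in 6C3+ than in CSP and 1.35 higher than in THY+. Pmepa1, a feedback inhibitor, was lower in 6C3+ than in mSSC, with a difference of -1.53, a call lost by rescaling.

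Genes that TGF beta is known to induce went both ways in the main set. Of 18, 6 were higher and 6 lower in THY+ minus mSSC, 5 and 4 in 6C3+ minus mSSC, 2 and 6 in CSP minus mSSC, 8 and 5 in THY+ minus CSP, 5 and 6 in 6C3+ minus CSP, and 2 and 5 in 6C3+ minus THY+. In THY+ minus mSSC the matrix genes Col1a1 (7.16), Postn (7.04) and Col3a1 (3.31) were higher, while Cyr61 (-2.56), a matricellular protein, was lower. Ctgf, its relative, was found in 31 of 37 mSSC cells (83.8%, 68 to 93.8) and 11 of 34 6C3+ cells (32.4%, 17.4 to 50.5), intervals that do not meet. The median of the 18 was 0.06 in THY+ minus mSSC, beside 0.10 for all genes. Over all cells the split was 3 higher and 8 lower in THY+ minus mSSC, 1 and 9 in 6C3+ minus mSSC, 0 and 9 in CSP minus mSSC and 1 and 9 in 6C3+ minus THY+. These genes also answer to other signals and several mark cell types.

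**Figure D5:**
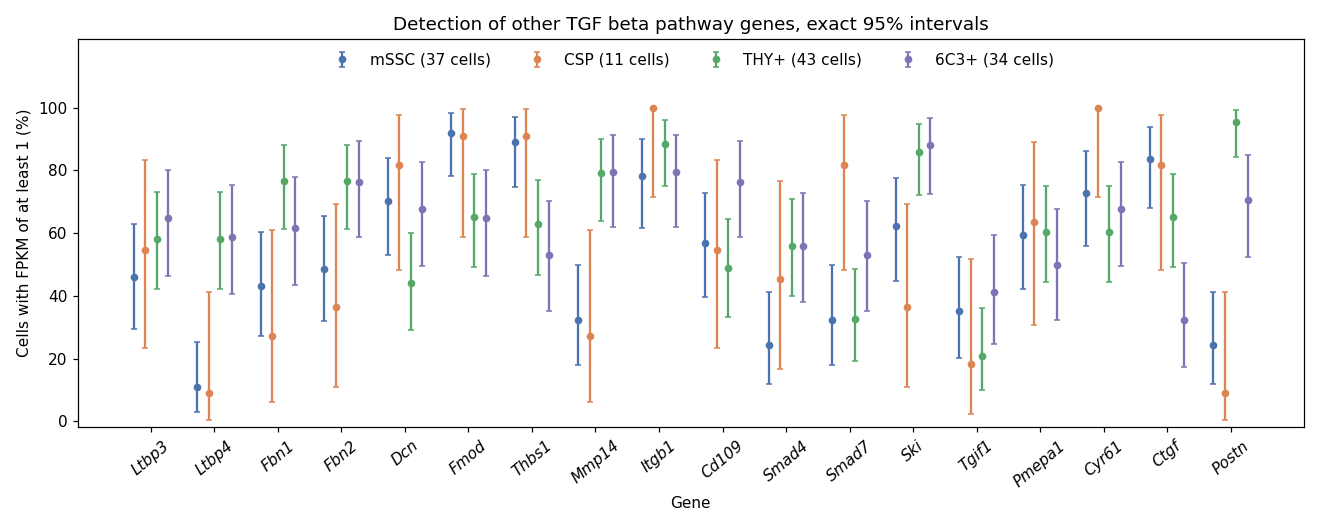
Share of cells (%) with 18 other genes of the pathway at FPKM of at least 1, in cells with at least 1000 genes; points are shares and bars exact 95% intervals. Ltbp4, Mmp14 and Postn are higher in THY+ and 6C3+ than in mSSC cells, and Thbs1 and Ctgf are lower in 6C3+ than in mSSC cells, without overlap of the intervals.

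In the mm10 build (GENCODE M21) the 9 members are protein-coding genes on 8 chromosomes: Tgfb1 on chromosome 7 (25687002 to 25705077, plus strand), Tgfb2 on 1 (186622792 to 186705989, minus), Tgfb3 on 12 (86056745 to 86079041, minus), Tgfbr1 on 4 (47353222 to 47414931, plus), Tgfbr2 on 9 (116084293 to 116175360, minus), Tgfbr3 on 5 (107106570 to 107289629, minus), Smad3 on 9 (63646767 to 63757994, minus), Ltbp1 on 17 (75005568 to 75392512, plus) and Tgfbi on 13 (56609523 to 56639562, plus). The values are given per gene, and how they were summed over its exons is not stated in the sources used here.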

How the data were processed

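Single-cell libraries of 37 mSSC, 26 CSP, 72 THY+ and 92 6C3+ cells were read from 1 table of FPKM values, deposited by the authors, with 24388 genes and 92 spike-ins. Per the submitters' processing notes the mm10 build and SAMtools were used; the sources used here give no aligner, FPKM program or annotation. Columns were matched to cells by index names, with 0 unmatched. The members and gene lists were chosen with earlier results of these data known.

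A gene counted as detected at FPKM of at least 1. Levels were mean log2(FPKM + 1), compared between populations in cells with at least 1000 genes, with no test because each population is 1 sample. The filter for all-gene shares was detection in at least 10% of cells. Named genes were the 9 members, the 3 genes with the highest Pearson r to each member (unnamed gene models and sex-linked markers left out), up to 4 genes per list with the widest difference, and gate antigens. Other list genes in the text, which are Ltbp4, Ctgf, Itgb3, Itgb5, Itgb6, Itgb8 and Mmp9, and the splits within populations were chosen after their values were seen. Alternatives were pseudocounts of 0.1 and 10, rescaling to 1000000, the log2 of the mean, detection above 0 or at 10, all cells, and cells with 2000 to 3000 genes; cells under 20% spike-in were added after seeing the data. The comparison was run on simulated data, with both groups redrawn from THY+ cells and known folds planted, to check the direction of those folds. Differences of plate, spike-in or population between groups were not simulated. The work used pandas 2.3.3, scipy 1.17.1, numpy 2.4.6 and matplotlib 3.10.9 under Python 3.11.15.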

Additional observations from a re-analysis of the deposited data

How the results depend on the processing

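No paired analysis was possible because each population is 1 sample and the labels give no replicate numbers. The number of members past 1 was 5 in 6C3+ minus CSP, 5 in THY+ minus CSP, 4 in CSP minus mSSC, 1 in 6C3+ minus mSSC, and 0 in THY+ minus mSSC and in 6C3+ minus THY+. In THY+ minus mSSC it became 2 with a pseudocount of 0.1, 2 rescaled, 1 with the log2 of the mean, 1 over all cells and 6 in cells under 20% spike-in. The share of all genes past 1 went from 21.2% to 37.7%, 23.4%, 48%, 26.1% and 32.6% in that order. In 6C3+ minus mSSC the number of members became 3, 3, 2, 4 and 2 under the same settings, 0 with a pseudocount of 10 and 3 in cells with 2000 to 3000 genes. The share of all genes there went from 19.7% to 34.7%, 22.7%, 63.1%, 39.4%, 22.6%, 9.57% and 23.4% in that order. In 6C3+ minus THY+ the number of members became 2 with a pseudocount of 0.1, 3 rescaled, 3 with the log2 of the mean, 2 in cells with 2000 to 3000 genes and 2 under 20% spike-in. All genes past 1 went from 13.2% to 26.7%, 15%, 62%, 21.9% and 31.5% in that order. A pseudocount of 10 gave 2 members in CSP minus mSSC, 1 in THY+ minus CSP and 2 in 6C3+ minus CSP, beside 7.93%, 11.7% and 13.1% of all genes. Over all cells 6C3+ minus CSP had 0 members, beside 9.25% of all genes. The shares of all genes moved with the setting, so a changed count is not by itself a result about the members.

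Of 378 member differences under the alternatives, 281 stayed on the same side of a size of 1. The sign changed in 69, of which 53 were under 1 in both settings. Of the other 16, 8 were past 1 in the main set: over all cells Tgfb2 in CSP minus mSSC (-0.0085) and Tgfbr1 in 6C3+ minus mSSC (-0.038), and in cells with 2000 to 3000 genes Tgfb3 (-1.10) and Tgfbi (-2.82) in 6C3+ minus CSP, Tgfbr2 (-0.0476), Ltbp1 (-1.19) and Tgfbi (-2.71) in THY+ minus CSP, and Tgfbi (2.19) in CSP minus mSSC. The 8 that were under 1 before were Tgfb2 in THY+ minus mSSC (1.03) under 20% spike-in, Tgfbr1 in CSP minus mSSC (-2.63) and Ltbp1 in 6C3+ minus CSP (-1.11) with the log2 of the mean, and, with 2000 to 3000 genes, Tgfb3 (1.86) and Ltbp1 (1.32) in CSP minus mSSC, Tgfb3 in THY+ minus CSP (-1.79), and Smad3 (-1.09) and Ltbp1 (-2.67) in 6C3+ minus CSP. The set with 2000 to 3000 genes holds 3 CSP cells; the cause was not tested otherwise. The difference of Tgfbr3 in CSP minus mSSC was -2.18 to -5.97 under every setting but a pseudocount of 10 (-1.30). Of 216 detection shares 33 moved outside the interval of the main value. Of 88 shares of cells with combinations of transcripts 28 moved, 19 of them at FPKM of at least 10 and 9 over all cells. Some of these shares could not move. The same 37 mSSC cells form the main set, all cells and those under 20% spike-in. The same 11 CSP cells form the main set and those under 20% spike-in. Differences in CSP minus mSSC under 20% spike-in therefore repeat the main values. Rescaling moved the median of all genes by 0.38 in 6C3+ minus mSSC and 0.30 in 6C3+ minus THY+, whose split of genes past 1 went from 2.03% higher and 11.1% lower to 9.55% and 5.45%; in 6C3+ minus mSSC it went from 4.89% and 14.8% to 16.1% and 6.61%. Without the detection filter the share of all genes past 1 fell in all 6 pairs, to between 4.47% and 11.4%.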
